A study of Mus musculus with 4 samples.

Results

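The receptors described here are the class I olfactory receptors of the mouse with the symbols Olfr543 to Olfr692. They were taken as all non-control probes of the array whose design accession maps to a gene of this number range. The rule used the names alone and no measured value. It found 112 genes, out of 1080 olfactory receptor genes and 45616 genes of any kind on the array, and the remaining 968 receptors served for comparison. In RefSeq (assembly GRCm38.p6) there are 147 genes in this number range, all of them on chromosome 7. Of these 147 genes, 117 are protein coding and 30 are pseudogenes. All 112 measured receptors were protein coding, and the other 35 genes of the range were not analysed here. A single probe measured 109 of the 112 receptors, and 2 probes each measured Olfr630, Olfr631 and Olfr681.

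Total RNA of nasal mucosa from the septum was measured on 4 one-color Agilent arrays, with 2 arrays for young adult mice (8 weeks of age) and 2 for aged mice (16 months of age). All mice were male, of the inbred C57BL/6 background (C57BL/6J in the sample labels). The labels name no modified allele, and a description in them of silica aspiration and lung matches neither their titles nor their protocols and was not used. Each array was hybridized with the pooled RNA of 5 mice, so the spread between the 2 arrays of an age is a spread between pools, and P-values measure no more than that. The study's methods list fewer mice for the gene work at each age than fully separate pools would take, so the pools of an age may have mice in common. The labels call the tissue olfactory epithelium, whereas the collected mucosa also holds other tissue. Omp, the defining protein of mature olfactory receptor neurons (ORNs), was well above background on all 4 arrays, as were all 7 mature ORN markers and all 4 markers of the supporting sustentacular cells. A level below is the quantile-normalized intensity of a gene on one array, and a log2 fold change is the aged mean minus the young adult mean on the log2 scale. The fraction of non-control spots well above background ranged from 63.1% to 76.8% over the 4 arrays, no spot was saturated, and the arrays correlated at r = 0.982 to 0.989 over all genes. The first array of each age came from the same slide, and the other arrays came from a slide each.

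Olfactory receptors are G protein-coupled receptors in the cilia of ORNs. Each mature ORN transcribes a single allele of a single receptor gene, so in whole tissue the level of a receptor depends both on how many neurons chose it and on how much RNA each of them holds. Fewer cells of a type and less RNA per cell cannot be told apart in these bulk samples. Class I receptors resemble the receptors of fish, lie in a single cluster on mouse chromosome 7, and are expressed mainly by ORNs in the dorsal zone of the epithelium. Several of them detect carboxylic acids. A shared enhancer, the J element, is known to act on class I genes across the cluster, and the transcription factor Bcl11b is known to bear on whether an ORN chooses a class I or a class II receptor.

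Most class I receptors were measured at a lower level in aged mice, while most other receptors were measured at a higher level. Of the 112 class I receptors, 90 had a lower and 22 a higher mean level in aged than in young adult mice. Their median log2 fold change was -0.28, with quartiles of -0.51 and -0.05 and a range from -1.50 to 2.28. Among the 968 other receptors, 364 were lower and 604 were higher, with a median log2 fold change of 0.15 and quartiles of -0.14 and 0.48. Over all 45616 genes the median was 0.01. The counts and medians are descriptions, since genes are not replicates, and these groups of receptors were not tested against each other.

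The median level of the class I receptors was 94.5 and 104 in the young adult pools, against 79.2 and 85.5 in the aged pools. The ages did not overlap, with the aged pools lower. The median level of the other receptors ran the opposite way, with 59.9 and 62.0 in young adult against 66.7 and 69.3 in aged pools. The summed level of the class I receptors was 32315 and 33428 in young adult mice and 27158 and 26796 in aged mice.

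**Figure D1:**
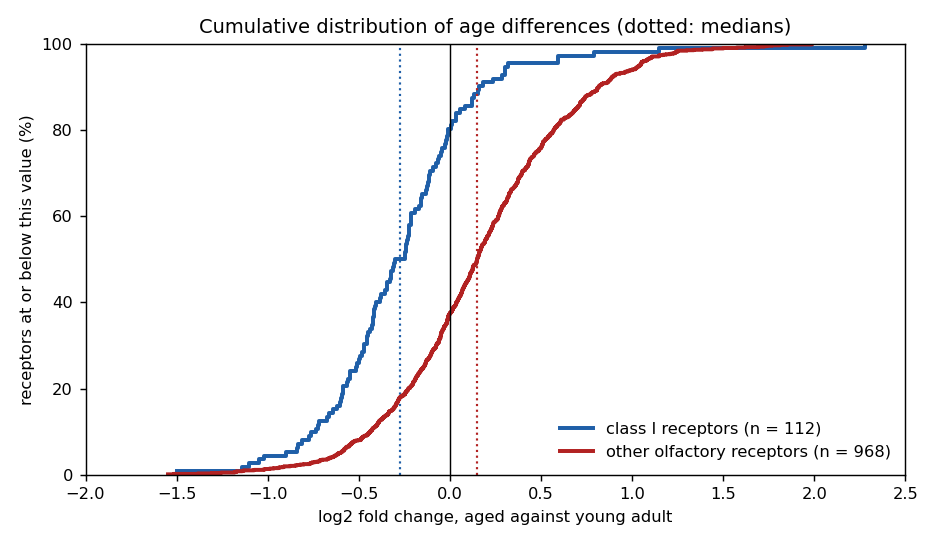
The plot shows the cumulative percentage of receptors (vertical axis) at or below each log2 fold change of aged against young adult mice (horizontal axis), for the 112 class I receptors in blue and the 968 other receptors in red, with dotted lines at the medians of -0.28 and 0.15. The blue curve lies to the left of the red curve over most of its course, and its right tail ends in the highest single value of 2.28.

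In the limma fit over all genes, 18 class I receptors fell and 1 rose at P below 0.05 and a false discovery rate (FDR) below 0.25, the thresholds of the study's methods, and 93 passed neither way. These are 16.1% and 0.893% of the class I receptors, where 2.33% of all genes were called lower, 1.65% were called higher and 3.98% either way. Of the 968 other receptors, 22 fell (2.27%) and 117 rose (12.1%). When a mean level of at least 100 over the 4 arrays and a fold change of at least 1.5 were also required, as for the differentially expressed genes (DEGs) of the study, 10 class I receptors fell and 1 rose, against 1.15% of all genes lower, 0.813% higher and 1.96% either way. Of the other receptors, 10 were such DEGs with a lower and 72 with a higher level. The FDR of the 19 called class I receptors lay between 0.168 and 0.246, and 0 of the 45616 genes had an FDR below 0.05. At an unadjusted P below 0.05, limma gave 41 class I receptors with a lower and 3 with a higher level, and 58 and 220 of the other receptors. Over all genes, 7.09% were lower, 6.05% were higher and 13.1% either way at that threshold. With the replicate number as a block, 0 class I receptors and 0 genes of any kind were called. The unadjusted limma counts of class I receptors were then 34 lower and 1 higher. The share of all genes at that threshold was not counted in the block fit, so these 2 counts have no background to be read against. Without young adult replicate 1 or 2 or aged replicate 1 or 2, the calls were lost for genes of every kind, class I receptors included.

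With 2 arrays per age, an exact permutation test of a single gene cannot go below P = 0.33, so the arrays themselves were also set side by side. For 65 class I receptors each aged array was lower than each young adult array, for 9 each was higher, and for 38 the ages overlapped. Over all genes the ages did not overlap for 46%, of which 21.8% of all genes had the aged arrays lower and 24.2% had them higher. Among the other receptors, the aged arrays were lower for 153 and higher for 373.

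Detection limits what can be said of the dimmer receptors. Of the 112 class I receptors, 54 were well above background on all 4 arrays and 19 on none. The 55 receptors with a mean level of at least 100 had a median of -0.25 on the log2 fold change, with 47 lower and 8 higher, and the 57 receptors below that level had a median of -0.32, with 43 lower and 14 higher. The other receptors were split by the same limit into 347 with a median of 0.19 and 621 with a median of 0.13. Both intensity ranges showed a negative median for class I and a positive median for the rest. For the receptors with 2 probes, Olfr681 gave log2 fold changes of -0.13 and -0.34, both from probes well above background on every array, while the probes of Olfr630 and Olfr631 were not well above it on any. Receptor genes are similar in sequence, and whether a probe also binds the RNA of a related receptor cannot be read from the arrays.

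The largest fall among the DEGs was that of Olfr566. Its level was 1069 and 1073 in the young adult pools and 396 and 362 in the aged pools. Both young adult values were above both aged values, and the log2 fold change was -1.50 (SE 0.09, limma FDR = 0.168). This was the smallest FDR of any class I receptor.

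Olfr612, Olfr582 and Olfr657 followed with log2 fold changes just beyond -1. Olfr612 stood at 158 and 192 in young adult mice and at 74.5 and 83.7 in aged mice (log2 fold change -1.14, SE 0.14, limma FDR = 0.201). Olfr582 stood at 180 and 209 in young adult mice and at 84.7 and 103 in aged mice (log2 fold change -1.05, SE 0.16, limma FDR = 0.211). Olfr657 stood at 165 and 154 in young adult mice and at 73.5 and 84.0 in aged mice (log2 fold change -1.02, SE 0.11, limma FDR = 0.187). The ages did not overlap for any of the 3 receptors, although Olfr612 and Olfr657 were well above background on only 1 of the 2 aged arrays. Olfr658, the direct neighbour of Olfr657 in the cluster, was measured at 671 and 663 in young adult and 367 and 394 in aged mice, with a change of -0.81 on the log2 scale (SE 0.08, limma FDR = 0.185).

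The remaining 5 receptors among the downregulated DEGs had smaller changes. Olfr633 was at 241 and 259 in young adult and 138 and 155 in aged mice, with a change of -0.77 on the log2 scale (SE 0.11, limma FDR = 0.206). Olfr575 was at 529 and 555 against 339 and 340, a log2 fold change of -0.68 (SE 0.08, limma FDR = 0.191). All aged values of both receptors were below all young adult values. Olfr690, close to the end of the cluster, was at 820 and 782 against 522 and 504, a log2 fold change of -0.64 (SE 0.08, limma FDR = 0.201). Olfr669 was at 325 and 295 against 202 and 206, a log2 fold change of -0.60 (SE 0.09, limma FDR = 0.213). Its close neighbour Olfr670 was at 195 and 169 against 120 and 122, a log2 fold change of -0.59 (SE 0.11, limma FDR = 0.242). The ages were separated for these receptors as well, and Olfr670 lay at the fold change limit of 1.5. Separated arrays were a condition for naming a DEG here, so the separation of the named DEGs is no added evidence.

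Olfr591 was the single class I receptor that rose past the thresholds. Its level was 95.4 and 89.6 in young adult mice and 143 and 135 in aged mice. Both aged arrays were above both young adult arrays, with a log2 fold change of 0.59 (SE 0.09, limma FDR = 0.211). Like Olfr670, Olfr591 lay at the fold change limit of 1.5, with a fold of 1.51. It was no longer among the DEGs with a larger offset, without background correction, with the processed signal or with scaling to the 75th percentile, although its log2 fold change stayed between 0.41 and 0.75 over all 16 alternatives.

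**Figure D2:**
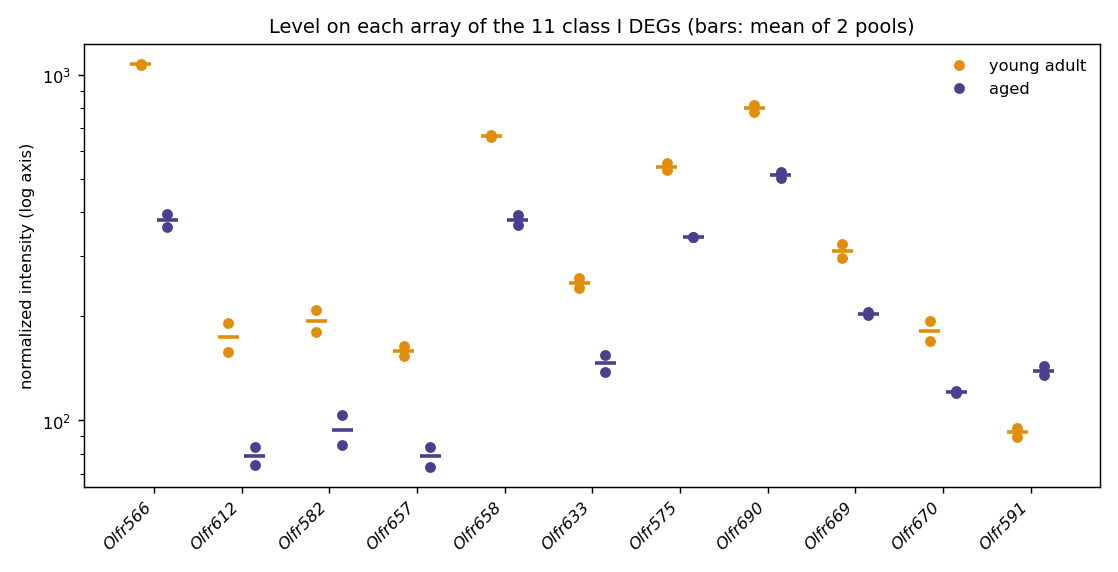
The plot shows the normalized intensity (log axis) of the 11 class I receptors among the DEGs on each array, with young adult pools in orange, aged pools in violet and a bar at the mean of the 2 pools. The aged points lie below the young adult points for the 10 receptors from Olfr566 to Olfr670 and above them for Olfr591.

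The other 8 receptors called lower missed the limit on the mean level or on the fold change. Olfr649 was at 539 and 525 in young adult and 388 and 392 in aged mice, with a change of -0.45 on the log2 scale (limma FDR = 0.232). The falls of Olfr586, Olfr596 and Olfr641 were -0.66, -0.42 and -0.44 on the log2 scale (limma FDR = 0.246, 0.240 and 0.242), and each of these 3 receptors exceeded the background clearly in both young adult pools and in 1 aged pool. Olfr622, Olfr638 and Olfr645, which are named here after their values were seen, were dimmer. Olfr622 was not well above background on either aged array, and its measured level was 1.79-fold lower there (limma FDR = 0.234). Olfr638 was likewise not well above background in aged mice, and its measured level was 1.69-fold lower (limma FDR = 0.201). For both, the aged values lay above the dimmest signal that counts as well above background. These folds are therefore the measured ones and not minimum folds. Over the 16 alternatives the log2 fold change ranged from -1.22 to -0.45 for Olfr622 and from -1.40 to -0.38 for Olfr638. Olfr645 was not well above background on any array, so its measured log2 fold change of -1.10 (limma FDR = 0.242) gives no fold.

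Olfr544, Olfr545 and Olfr558 are class I receptors with known carboxylic acid ligands. Olfr544 responds to the dicarboxylic acid azelaic acid, and Olfr558 to short branched and unbranched fatty acids. Olfr558 fell, from 248 and 240 in young adult mice to 170 and 177 in aged mice, and all aged values were below the young adult values (log2 fold change -0.49, SE 0.08, limma FDR = 0.221). Olfr544 was at 4114 and 4085 in young adult mice and at 3665 and 3635 in aged mice. Its arrays separated by age, but the log2 fold change of -0.17 (SE 0.07) did not pass the test (limma FDR = 0.470). Olfr545 was at 194 and 167 in young adult mice and at 126 and 113 in aged mice, again without overlap, and its log2 fold change of -0.59 (SE 0.13) passed on the unadjusted value but not on the limma FDR, which was 0.271.

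A pair of receptors differed between the pools of one age by far more than between the ages, and both are named after their values were seen. Olfr583 was at 21.8 and 28.6 in young adult mice, and at 430 and 34.2 in aged mice. Its level was high on the first aged array alone, the single array on which it was well above background, and its log2 fold change of 2.28 (SE 1.41) did not pass (limma FDR = 0.583). Olfr555 was at 37.3 and 40.7 in young adult mice and at 276 and 27.1 in aged mice. It too was high on the first aged array alone, with a log2 fold change of 1.15 (SE 1.29, limma FDR = 0.745), and without that array the value was -0.53. The SE of the 19 called class I receptors was at most 0.20.

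To show the sequence next to the age differences, the windows around the annotated start are printed for the 3 largest falls and the rise among the DEGs. Each window runs from 250 bases before to 50 bases after the annotated start of the gene, in RefSeq on GRCm38.p6, and is written 5′ to 3′ on the strand of the gene. Capitals mark an ATG at the annotated start and matches to TATAAA on either strand, which reads TTTATA where the match lies on the opposite strand.
Olfr566, chr7:102858716-102859015, minus strand: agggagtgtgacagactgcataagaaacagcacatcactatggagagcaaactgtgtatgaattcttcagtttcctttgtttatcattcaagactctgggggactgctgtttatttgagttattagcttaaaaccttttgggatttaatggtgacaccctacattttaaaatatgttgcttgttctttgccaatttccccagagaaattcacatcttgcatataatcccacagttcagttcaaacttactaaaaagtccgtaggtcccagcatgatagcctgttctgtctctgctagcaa
Olfr612, chr7:103539183-103539482, minus strand: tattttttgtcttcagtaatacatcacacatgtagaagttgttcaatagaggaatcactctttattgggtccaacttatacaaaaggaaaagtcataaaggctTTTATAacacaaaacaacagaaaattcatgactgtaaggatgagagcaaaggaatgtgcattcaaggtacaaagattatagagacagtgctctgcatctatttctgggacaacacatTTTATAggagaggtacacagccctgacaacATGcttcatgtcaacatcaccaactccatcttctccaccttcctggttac
Olfr582, chr7:103041231-103041530, plus strand: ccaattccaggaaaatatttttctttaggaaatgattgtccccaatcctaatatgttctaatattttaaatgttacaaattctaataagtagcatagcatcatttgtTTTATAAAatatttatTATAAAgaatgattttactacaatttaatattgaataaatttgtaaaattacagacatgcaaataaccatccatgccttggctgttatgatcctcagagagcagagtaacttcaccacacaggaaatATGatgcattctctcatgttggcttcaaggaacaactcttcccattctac
Olfr591, chr7:103173586-103173885, minus strand: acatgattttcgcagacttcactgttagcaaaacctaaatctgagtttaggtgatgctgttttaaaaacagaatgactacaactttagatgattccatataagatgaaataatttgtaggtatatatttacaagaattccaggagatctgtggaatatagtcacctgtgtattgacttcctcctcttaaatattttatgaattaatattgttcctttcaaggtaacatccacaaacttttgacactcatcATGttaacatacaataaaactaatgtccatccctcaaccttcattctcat

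A window was at hand for 96 of the 112 class I receptors. In 73 of these 96 windows the annotated start is an ATG, so that the window precedes the coding start and need not hold the start of transcription. The windows were searched on both strands for TATAAA, for the homeodomain core TAATTA and for the palindromic Olf1/Ebf consensus site. TATAAA was present in 40 of the 96 class I windows (41.7%), in 40.7% of 821 windows of other receptors and in 14.2% of all 27025 windows. Olfr582 holds 3 matches, of which a forward and a reverse match overlap, Olfr612 holds 2, and Olfr566 and Olfr591 hold none. TAATTA was present in 12 class I windows (12.5%), in 19% of the other receptor windows and in 5.31% of all windows. The Olf1/Ebf site was present in 0 class I windows, in 0.609% of the other receptor windows and in 0.914% of all windows. Of the 15 receptors called lower that have a window, 5 held TATAAA (33.3%) and 4 held TAATTA (26.7%), against 43.2% and 9.88% of the 81 that were not called lower. These matches are a description of the letters in the window, and no match says nothing of a factor beyond it.

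The falls were spread over the cluster. In the gene order of the RefSeq table, the range from Olfr543 to Olfr692 also takes in 11 receptors with numbers outside it and 59 genes of other kinds, including the beta-globin genes and a block of Trim genes from Trim6 to Trim30d. Before the beta-globin genes lie 64 of the measured class I receptors, of which 51 were lower, with a median log2 fold change of -0.22 and with 8 called lower and 1 called higher. After them lie 48, of which 39 were lower, with a median of -0.34 and 10 called lower. Between the beta-globin and the Trim genes, 12 of 15 receptors were lower (median -0.44, 5 called), and after the Trim genes 27 of 33 were lower (median -0.32, 5 called). The longest run of neighbouring measured receptors with a lower mean was 16, from Olfr593 to Olfr615, and the longest run with a higher mean was 3. Whether the stretches differ from each other was not tested.

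**Figure D3:**
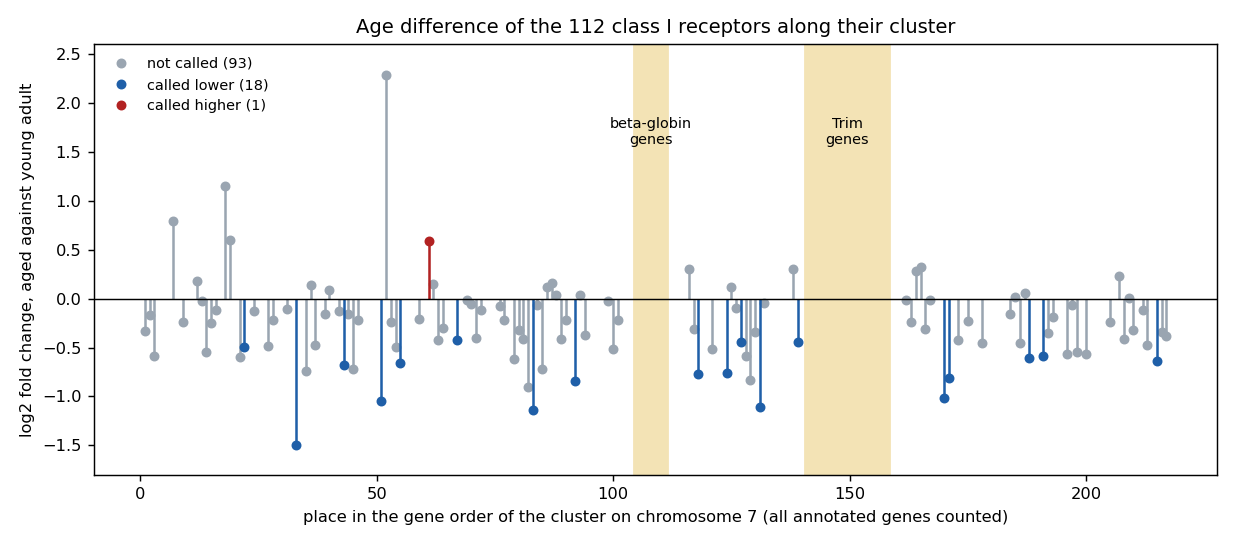
The plot shows the log2 fold change of aged against young adult mice (vertical axis) of each of the 112 class I receptors by its place in the gene order of the cluster on chromosome 7 (horizontal axis, all annotated genes counted), with called falls in blue, the called rise in red and the rest in gray, and shaded bands at the beta-globin and Trim genes. Values below 0 and called falls occur on both sides of the beta-globin genes and after the Trim genes, and the tallest gray line is Olfr583 at 2.28.

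Genes that lie between the class I receptors in the cluster were examined as well. Of 25 measured genes of other kinds, 15 were lower and 10 higher, with a median log2 fold change of -0.05, and 0 were called. At an unadjusted P below 0.05, limma gave 2 of them lower and 0 higher. Of these 25 genes, 12 were well above background on no array. The 11 that were so on both arrays of at least 1 age had a median of -0.20, with 9 lower and 2 higher. Of these 11, 9 were well above background on all 4 arrays. The others, Hbb-bh1 (-0.81) and Trim34b (-0.29), passed only through the young adult arrays, where they were higher. This limit thus favours falls, and the median of -0.20 is in part a result of it. Over all 25 genes the median was -0.21 within the shared slide and -0.19 between the other arrays. Of 9 measured receptors of the cluster whose numbers fall outside the range, 6 were lower and 3 higher (median -0.11), and 1 was called. This was Olfr69, at 241 and 286 in young adult and 136 and 124 in aged mice, with separated arrays and a log2 fold change of -1.01 (SE 0.13, limma FDR = 0.201). These 9 receptors lie in the class I cluster but were counted among the 968 other receptors. The name class I is used here for the number range alone.

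Receptor genes elsewhere on chromosome 7 and with adjacent numbers had positive medians. Over the 112 receptors on chromosome 7 that lie outside the class I cluster the median log2 fold change was 0.15, with 68 higher and 44 lower, and 16 were called higher and 2 lower. Olfr693 to Olfr716 gave 21 measured genes with a median of 0.18, of which 17 were higher and 4 lower. None of these 21 was called, with 3 higher and 0 lower at an unadjusted limma P below 0.05. Olfr462 to Olfr541 gave 61 genes with a median of 0.07, of which 34 were higher and 27 lower, and 9 were called higher and 0 lower, with 1 lower at an unadjusted limma P below 0.05. On the 12 chromosomes that hold at least 20 of the other receptors, their median ranged from -0.01 on chromosome 9 to 0.37 on chromosome 16. The class I median of -0.28 lay below all 12 of these values.

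Since the first array of each age shared a slide, the difference was also taken within that slide. There the class I median was -0.30, with 84 receptors lower and 27 higher, and the other receptors had a median of 0.11. Between the remaining arrays, which lay on separate slides, the class I median was -0.27 and that of the other receptors 0.17. The direction was the same in both pairs of arrays for 85 of the 112 class I receptors. This also held for 641 of the 968 other receptors and for 27982 of the 45616 genes of any kind.

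**Figure D4:**
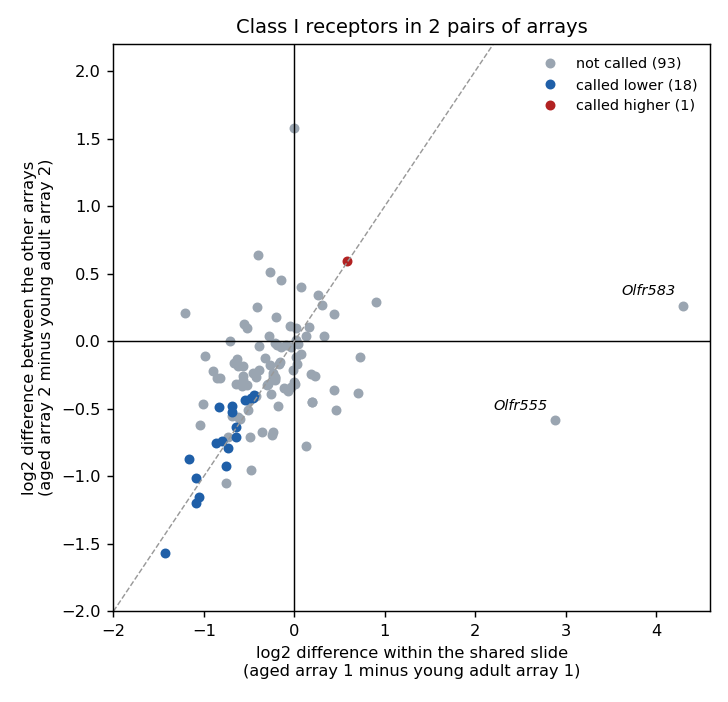
The plot shows, for each of the 112 class I receptors, the log2 difference of aged minus young adult within the shared slide (horizontal axis) against the difference between the other arrays (vertical axis), with called falls in blue, the called rise in red, the rest in gray and a dashed line of equality. Most points lie at the lower left, the called receptors lie near the line, and Olfr583 and Olfr555 lie far to the right of it. A small spread between the arrays of an age favours a call and also places a receptor near the line. The nearness of the called receptors therefore adds nothing to their calls.

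The genes that carry the olfactory signal and bring receptors to the cell surface had higher mean levels in aged mice. This held for all 15 of 15 such genes, with a median log2 fold change of 0.20, and 1 was called higher. This was Pde4a, a cAMP phosphodiesterase, at 11009 and 11015 in young adult and 15695 and 14482 in aged mice (log2 fold change 0.45, SE 0.09, limma FDR = 0.249). At an unadjusted P below 0.05, limma gave 5 of the 15 genes higher and 0 lower. Among 12 factors known to act in receptor choice, 10 were higher and 2 lower (median 0.06), and 0 were called, with 1 higher and 0 lower at an unadjusted limma P below 0.05. Bcl11b was at 1167 and 1084 in young adult and 1188 and 1300 in aged mice (log2 fold change 0.14, SE 0.10, limma FDR = 0.610).

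Markers of cell types and zones moved beside the receptors as follows. All 7 markers of mature ORNs, of which Cnga2, Gnal, Adcy3, Rtp1 and Gng13 also belong to the signalling genes, had a higher mean level in aged mice (median 0.14), and their summed level was 557655 and 550489 in young adult and 604494 and 616319 in aged mice. Of these, Stoml3, a protein of ORN cilia, was called, at 30691 and 29551 against 41364 and 39866 (log2 fold change 0.43, SE 0.08, limma FDR = 0.243). Omp was at 300826 and 286061 in young adult and 317836 and 332591 in aged mice (log2 fold change 0.15, SE 0.08, limma FDR = 0.549). The study counted fewer OMP-positive mature ORNs and fewer GAP43-positive immature ORNs in the septal epithelium of aged mice, by protein staining of other mice. The Omp level here is bulk RNA and not a count of cells. All 6 markers of immature ORNs had a lower mean level (median -0.32), with a summed level of 52263 and 51104 in young adult and 42254 and 41362 in aged mice. Of these, 1 was called, Dpysl3, which acts in axon growth, at 7719 and 7710 against 5806 and 5915 (log2 fold change -0.40, SE 0.07, limma FDR = 0.247), and 5 of the 6 were lower at an unadjusted limma P below 0.05. Of 4 markers of sustentacular cells, the supporting cells of the epithelium, 3 were higher and 1 lower, and Cyp1a2 was called (log2 fold change 0.54, SE 0.08, limma FDR = 0.209).

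Class I receptors are expressed mainly in the dorsal zone, so genes of the zones were examined as well. Acsm4, a dorsal zone gene, was at 65716 and 65081 in young adult and 72495 and 74642 in aged mice (log2 fold change 0.17, SE 0.08, limma FDR = 0.474). Nqo1, an enzyme of dorsal ORNs, was at 8670 and 8774 in young adult and 6601 and 7398 in aged mice (log2 fold change -0.32, SE 0.10, limma FDR = 0.351). The arrays separated by age in opposite directions for these genes, and neither passed in the reported fit. Under the 16 alternatives, Nqo1 passed as lower in 5 (limma FDR from 0.0328 to 0.702 over all of them) and Acsm4 as higher in 2 (limma FDR from 0.103 to 0.747). With Robo2 at -0.15, the median over the 3 dorsal genes was -0.15 on the log2 scale, with 2 lower and 1 higher. Their summed level, which is mostly that of Acsm4, was 74934 and 74394 in young adult and 79550 and 82564 in aged mice. Ncam2, an adhesion protein of ventral ORNs, was at 135 and 156 in young adult and 173 and 211 in aged mice (log2 fold change 0.40, SE 0.16, limma FDR = 0.427). Nrp2, the other ventral gene, had a log2 fold change of -0.03. Whether any of these markers bears on the class I receptors was not tested.

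**Figure D5:**
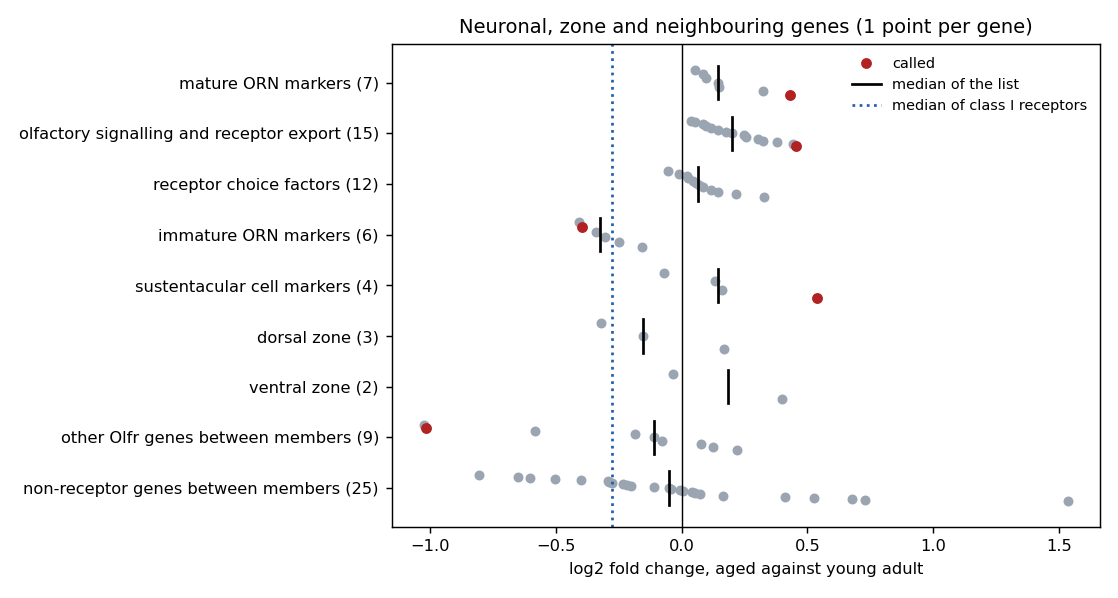
The plot shows the log2 fold change of aged against young adult mice (horizontal axis) of each gene of 9 lists, named with their number of measured genes on the vertical axis, with called genes in red, a black bar at the median of each list and a dotted blue line at the class I median of -0.28. All mature ORN markers and signalling genes lie to the right of 0, and all immature ORN markers lie to the left.

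Receptors of the vomeronasal organ, which lies in the septum as well, were measured for comparison. The median log2 fold change was -0.07 for 168 Vmn1r genes, with 3 called higher and 2 lower, and -0.11 for 90 Vmn2r genes, with 0 called higher and 1 lower. Of the 168 Vmn1r genes, 111 exceeded the background clearly on no array, and the same held for 65 of the 90 Vmn2r genes.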

How the data were processed

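The authors labelled RNA of 4 pools with Cy3, hybridized it to SurePrint G3 mouse arrays, and read the spots out with Feature Extraction 11.0.1.1. The deposited intensities comprise the median signal of each spot, its local background, a processed signal and flags, and were not normalized between arrays. The deposited series table equalled the processed signal at all 62976 spots, and the mean signal was not analysed here.

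The deposited median intensities were background-corrected with limma 3.58.1 (R 4.3.3), using normexp at offset 0. Control spots and 88 to 118 flagged spots per array were left out. Spots of a probe were averaged, log2 values were quantile normalized, and probes of a gene were averaged. The study's methods name limma, quantile normalization in R 3.2.1 and the thresholds, but no background method or offset. Accessions of 32994 of 56605 probes (58.3%) matched the RefSeq table of GRCm38.p6. The array design uses another build, so the table served for names and gene order, and the printed windows carry RefSeq coordinates.

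All 4 arrays were fitted with lmFit and eBayes without covariates, with the Benjamini-Hochberg FDR over 45616 genes. Precision is limited by having few arrays and, where probes are dim, by the background. The fit was also run on simulated data with independent arrays and changes placed in brighter genes. That simulation held no shared slide, no shared mice and no dim changed genes, so it says nothing of their effect.

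The receptors, gene lists and tests were chosen with earlier results of these data known. Named are the DEGs among the class I receptors with separated arrays (up to 12 in each direction), Olfr544, Olfr545 and Olfr558, up to 4 called genes per list with Omp, Acsm4, Nqo1, Ncam2 and Bcl11b, and called receptors of other numbers inside the cluster. Windows were limited to 3 per direction. Trpc2, a vomeronasal marker, was not found by symbol, and the other one, Gnao1, had a log2 fold change of 0.09. Alternatives were other offsets (16 and 50), no background correction, the processed signal, scaling to the 75th percentile, flagged spots kept, dim probes left out, the brightest probe, an intensity trend, a replicate block, 1 slide alone, single arrays left out, no limit on the mean level and an FDR of 0.05.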

Additional observations from a re-analysis of the deposited data

How the results depend on the processing

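The class I median was negative and the median of the other receptors positive (0.06 to 0.31) under every alternative tried, and 83 to 90 of the 112 class I receptors were lower in the settings that kept all of them. The difference between the class I and the other median was -0.42 in the reported fit, -0.35 with offset 16, -0.25 with offset 50, -0.31 without background correction, -0.63 with the processed signal scaled to the 75th percentile, and -0.51 over the 78 class I receptors left when dim probes were removed. With offset 50 the class I median was -0.18.

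The number of calls depended on the processing. The class I receptors called lower were 18 in the reported fit, 31 with offset 50, 32 without background correction, 28 with the quantile-normalized processed signal, 41 without dim probes and 35 with an intensity trend, and 17 and 15 when the processed and the reported signal were scaled to the 75th percentile. Over all genes the number called lower moved as well, from 1063 to 2478, 2241, 2346, 3707, 3517, 861 and 826 in the same order. Without dim probes only 78 class I receptors were left, so the 41 and the 3707 come from fewer genes than the other counts. Class I receptors not well above background on every array passed this filter only through the young adult arrays. The filter thus favours falls, and the 41 is no stronger support than the 18. Of the 18, all 18 remained called with offsets 16 and 50, with flagged spots kept and with the brightest probe, 17 without background correction, with the quantile-normalized processed signal and without dim probes, 16 with the trend, 13 with the processed signal scaled to the 75th percentile and 12 with that scaling of the reported signal. The class I receptors called higher were 1 in the reported fit, 3 with the quantile-normalized processed signal, 2 without dim probes and 0 with the reported signal scaled to the 75th percentile. Over all genes the number called higher was 754, 2030, 3446 and 584 in the same order. The 1 upregulated DEG, Olfr591, became 0 with offsets 16 and 50, without background correction, with either form of the processed signal and with scaling to the 75th percentile.

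At an FDR below 0.05, 0 class I receptors were called lower or higher and 0 were DEGs in either direction. The unadjusted limma counts stayed at 41 and 3. With the replicate number as a block, 0 were called and 0 were DEGs in either direction, with 34 lower and 1 higher at an unadjusted limma P below 0.05. The share of all genes at that unadjusted threshold was not counted in the block fit. In both settings 0 of all genes were called, so the loss was not particular to class I receptors. Deviations of same-numbered arrays correlated at -0.08 over all genes and 0.03 over the class I receptors. The arrays numbered 1 also share a slide, whereas those numbered 2 share only the number. Without any single array, young adult or aged, the calls were lost for genes of every kind. The class I medians of these fits ranged from -0.30 to -0.25, and their differences from the median of the other receptors ranged from -0.47 to -0.37. Leaving out 1 of 4 arrays leaves an age with 1 array, whose spread is then assumed to equal that of the other age. Without aged replicate 1, Olfr555 turned from 1.15 to -0.53 (limma FDR = 0.677), and over the 4 arrays left out in turn it ranged from -0.53 to 2.77. The high first aged array is the one left out there.

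The 18 falls were lower in every alternative in which they were measured, 17 of them when dim probes were left out. Olfr544 and Olfr545, which did not pass in the reported fit, passed as lower under 2 and 7 alternatives, Olfr545 with an FDR from 0.0729 to 0.677 over all 16. Signal over background limits the 19 receptors that were not well above it on any array.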
